A study of Caenorhabditis elegans with 6 samples.

Results

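The genes described here are the 300 members of the ncRNA class with the most small RNA counts in a study of the nematode Caenorhabditis elegans. They were chosen by the class that the deposited tables give each gene and by the sum of sense and antisense counts over all 6 libraries, after leaving out rpr-1, mrpr-1, yrn-1 and rncs-1. The class held 7719 genes after that, of 45510 genes in the tables, and 1396 of the 7719 had no count in any library. The 300 genes held 2592917 of the 2708521 counts of the class, or 95.7%. The sum of counts chose the genes, so their level is no finding. Ratios between libraries were not used, but the sum includes every library. A gene with most of its counts in a few libraries could enter through them, so its ratio is not free of the choice. C43H6.11 with 522 counts and H27M09.7 with 521 counts were the last genes to enter, and C36C9.9 with 515 counts and C16D9.14 with 509 counts were the first outside. Of the 2 names given as markers of the set, C18C4.17 was a member, at rank 27 of 300. The other, AH9.7, had 441 counts and ranked 325, so it lay outside. A further 229 genes with both ncRNA and protein-coding features in the tables were not counted in the class, and 91 of them had at least as many counts as the last member.

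The study examined antisense ribosomal siRNAs in mutants of susi-2, known as rrp-8, which encodes an rRNA methyltransferase, and of susi-3, known as riok-1, which encodes a kinase of ribosomal small subunit maturation. Each of 3 genotypes gave 1 library of total small RNA and 1 library of small RNA bound to the Argonaute NRDE-3, recovered with an antibody to the FLAG epitope. The genotypes were eri-1(mg366);susi-2(ust49), eri-1(mg366);susi-3(ust51) and eri-1(mg366), all carrying GFP::NRDE-3, so the control also carries the mutation of eri-1, which encodes an exonuclease of endogenous RNA interference. Whole L3 larvae were used, with 15 °C on OP50 bacteria given as the temperature and 20 °C for strain maintenance. RNA of 17 to 30 nt was cloned after treatment with phosphatase and polynucleotide kinase, which also lets small RNAs with a 5′ triphosphate be cloned. Each mutant was represented by 1 allele, and no pulldown from worms without the tag was used here. Every group was a single library, so replicates cannot check a difference between genotypes, and intervals given below are exact 95% intervals that cover counting error only. They treat every count as a separate read, so intervals of sums are too narrow where genes share reads.

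As background, worms make several kinds of small RNA. MicroRNAs are cut from hairpin precursors and pair with mRNAs. Secondary siRNAs, most of them starting with G, are made by RNA-dependent RNA polymerases that copy a target RNA, so they are antisense to it. NRDE-3 binds such siRNAs in somatic cells and carries them into the nucleus. tRNAs, snRNAs, snoRNAs, Y RNA and the RNA of the signal recognition particle (SRP) are abundant structural RNAs, and their breakdown also leaves sense fragments in small RNA libraries. Many C. elegans ncRNA class genes are short predicted transcripts that lie across or opposite another gene, and most have no known function.

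The libraries held between 9122066 and 10755494 counts. Sense counts of 21U-RNA genes, which make the germline piRNAs, were 0.422% of all counts in the susi-2 total library and 0.593% in the susi-3 total library, against 1.29% in the control total library. Summed sense counts of 7 germline genes were 41.2, 39.3 and 31.1 CPM (counts per 1000000 counts of the library) in those 3 libraries. Their antisense counts were 86.0, 87.9 and 142 CPM. Sense counts of 3 muscle genes were 555, 649 and 325 CPM, with no gene of either list at 0. Sense counts of 4 intestine genes went the other way, with 18.8, 19.6 and 28.3 CPM and 1 gene at 0 in susi-2. Sense counts of 4 sperm genes were near 0, with 0.0955, 0.203 and 0.190 CPM. The part of cell composition in the results below was not tested. Sense counts of rrp-8 were 10 in the susi-2 total library against 30 in the control total library, and those of riok-1 were 89 in the susi-3 total library against 94 in the control total library. These are fragments of 17 to 30 nt and do not measure the mRNA. In whole animals, fewer cells of a type and less RNA per cell cannot be told apart.

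Most of these 300 genes lie across a gene of another kind. By the coordinates of RefSeq's annotation (assembly WBcel235), used only to find overlaps and names, 299 of the 300 matched; 184 overlapped a tRNA gene, 18 an snRNA gene, 17 a microRNA gene, 13 a snoRNA gene and 1 (F55G1.20) the Y RNA gene yrn-1. These 233 are called structural-overlapping below, microRNA genes included. Of the other 67, 37 overlapped protein-coding genes only, 6 overlapped another non-coding gene or pseudogene, 23 overlapped no gene, and R166.6 had no match. Antisense counts made up over 90% of all counts for 218 genes, under 10% for 34 genes, and between these for 48 genes.

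The antisense counts of the genes that overlap microRNA and snRNA genes, and of most that overlap tRNA genes, closely matched the sense counts of the gene they overlap. These matches are of counts summed over the 6 libraries. For microRNA genes all 17 pairs lay within 1.5-fold, with a median ratio of 1.06 (microRNA sense over ncRNA class antisense), and for snRNA genes all 18 pairs did, with a median of 0.929. For tRNA genes 129 of the 181 pairs with counts did, with a median of 0.808, and for snoRNA genes 6 of 13. T09B4.14 had antisense counts of 254012, 258017 and 332910 in the susi-2, susi-3 and control total libraries; mir-1, a microRNA of muscle, had sense counts of 265131, 269493 and 348858 there. The strands ran the other way too: sense counts of all 18 snRNA-overlapping genes lay within 1.5-fold of the antisense counts of the snRNA gene. Among pairs with at least 50 sense counts, 15 of 37 for tRNA genes and 8 of 13 for snoRNA genes did. The median ratios were 0.594 and 0.837 (antisense of the overlapping gene over ncRNA class sense). The tables do not say how a read that fits 2 features was counted, and the annotation table used here gives no strand. Below, the antisense count of these genes is called the count on the strand of the overlapping RNA, and the sense count the one opposite to it. That naming rests on the matching pairs; in the other tRNA and snoRNA pairs the overlapping gene had over 1.5-fold fewer sense counts, so it does not account for all of their antisense counts.

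**Figure D1:**
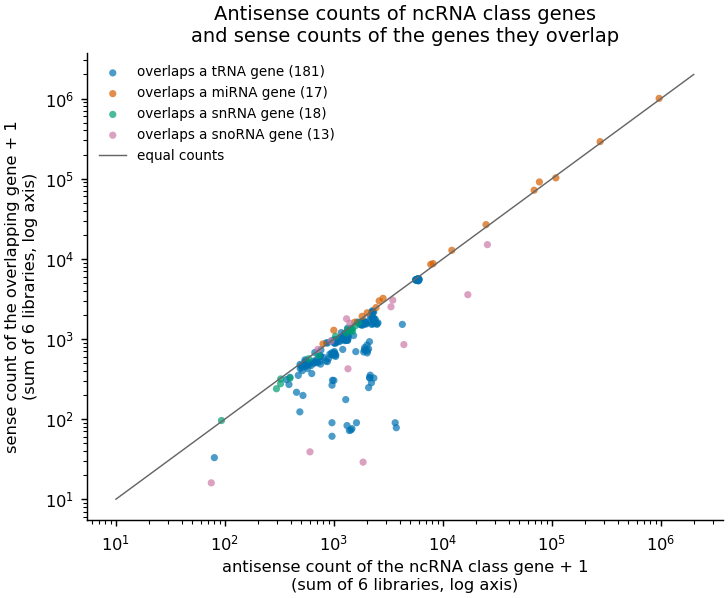
Antisense count of each ncRNA class gene (horizontal) against the sense count of the microRNA, tRNA, snRNA or snoRNA gene it overlaps (vertical), each summed over 6 libraries plus 1, on log axes; the line marks equal counts. All 17 microRNA pairs and all 18 snRNA pairs lie within 1.5-fold of the line, and some tRNA and snoRNA pairs lie well below it.

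The total is dominated by few genes. T09B4.14 alone held 37.2% of the members' counts, and the largest 5, all overlapping microRNA genes, held 57.7%. Members are also not independent of each other: 45 of them fell into 5 sets of at least 5 genes whose antisense counts lay within 10% of each other in all 3 total libraries, and every one of the 45 overlapped a tRNA gene. The largest set had 20 genes, among them C04C11.8 on rte-1, a glutamate tRNA gene. Its antisense counts ran between 1369 and 1541 in the susi-2 total library, between 1179 and 1281 in the susi-3 total library and between 2351 and 2553 in the control total library. Copies of 1 tRNA may share the same reads, so a count of such genes is not a count of separate events.

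Across the members compared, antisense counts in total small RNA were at least 2-fold higher for a larger share than over all genes in both mutants, and in the NRDE-3 IP more members were lower than higher in both mutants. A gene was compared where it had at least 50 counts on the strand over the 2 libraries, on the scale of log2(CPM + 1), and a gene at least 2-fold apart was counted. In total small RNA of susi-2, 262 of the 300 passed that minimum, 59 were higher (3.94% of all genes tested) and 28 lower (25% of all genes). In total small RNA of susi-3, 263 passed, 56 were higher (5.48% of all genes) and 42 lower (18.5%). In the IP of susi-2, 248 passed, 30 were higher (45.8% of all genes) and 64 lower (5.34%). In the IP of susi-3, 224 passed, 2 were higher (11.8% of all genes) and 124 lower (23%). A gene with few control counts passes only where the mutant count is high, so these tallies describe the genes that passed and not all members.

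The scale matters for these counts. Relative to library totals, the median antisense log2 difference of all genes tested was -0.60 and -0.56 in susi-2 and susi-3 total small RNA, and 0.92 and -0.37 in their IPs. The members' medians were 0.10, 0.13, -0.50 and -1.04 in the same order. TMM scaling, which centres all genes close to 0, put the members' medians at 0.77, 0.71, -1.43 and -0.65, so the direction of each held.

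On the sense strand, 53 members passed the minimum in susi-2 total small RNA, with 12 higher (15.7% of all genes) and 6 lower (8.59%); 72 passed in susi-3 total small RNA, with 24 higher (10.3%) and 13 lower (8.02%). In the susi-2 IP 86 passed, with 43 higher (4.54% of all genes) and 7 lower (16.9%), while in the susi-3 IP 56 passed, with 6 higher (3.22%) and 11 lower (9.04%). The members' median sense log2 difference was 0.38 and 0.06 in susi-2 and susi-3 total small RNA, which TMM scaling turned to -0.11 and -0.20. In the IPs it was 1.02 in susi-2 and -0.48 in susi-3, against -0.50 and -0.36 over all genes, and TMM scaling gave 1.50 and -0.12.

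**Figure D2:**
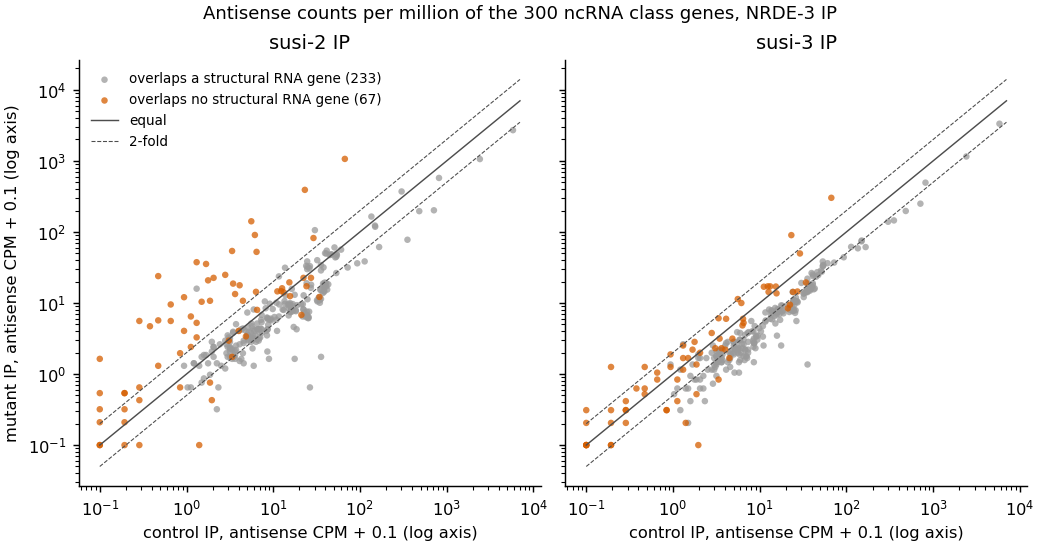
Antisense CPM plus 0.1 of the 300 ncRNA class genes in the IP of susi-2 (left) and susi-3 (right), vertical, against the control IP, horizontal, on log axes; the solid line marks equal values and the dashed lines 2-fold. In susi-2 IP the genes that overlap no structural RNA gene summed to 21890 counts against 4513 in control IP and mostly lie above the line, while those that overlap one mostly lie below it.

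The 2 kinds of member went opposite ways in the susi-2 IP. The 67 genes that overlap no structural RNA gene summed to 21890 antisense counts in the susi-2 IP, against 4513 in the control IP, a share 5.72-fold higher (5.54 to 5.91). Of the 65 with any count, however small, 51 had a higher share in the susi-2 IP and 14 a lower one. Of the 43 that passed the minimum, 27 (62.8%) rose by 2-fold or more and 2 (4.65%) fell as far. Over all genes tested, 45.8% rose and 5.34% fell that much, so a higher share was common in that IP. The median log2 difference was 1.86 for those 43 genes and 0.92 for all genes tested. The 233 structural-overlapping genes summed to 73147 antisense counts in the susi-2 IP against 162102 in the control IP, a ratio of 0.532 (0.527 to 0.537), and 189 of the 233 had a lower share. In the susi-3 IP the 67 genes summed to 6625 antisense counts against 4513 in the control IP, a ratio of 1.66 (1.60 to 1.73), although the median log2 difference of those that passed the minimum was -0.09 (0.28 under TMM scaling), and the 233 genes to 72250 against 162102, a ratio of 0.504. The SRP RNA genes carried much of the first sum: without the 4 of them, the remaining 63 genes had 8243 antisense counts in the susi-2 IP against 2995 in the control IP, a ratio of 3.25 (3.11 to 3.38). In the susi-3 IP they had 2626 against the same 2995, a ratio of 0.992 (0.941 to 1.05). Antisense counts of all genes together had a ratio of 1.97 in the susi-2 IP and 0.912 in the susi-3 IP.

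The 4 SRP RNA genes had a strand that was low in total small RNA and high in both mutant IPs. The RNA of the signal recognition particle, which directs nascent secretory proteins to the endoplasmic reticulum, is annotated at srpr-2.2, srpr-2.1, srpr-1.2 and srpr-1.1. srpr-2.2 had antisense counts of 9722, 2871 and 719 in the susi-2, susi-3 and control IPs, and of 60, 196 and 38 in the susi-2, susi-3 and control total libraries. Both mutant IPs were above the control IP, with a ratio of 15.9 (14.8 to 17.2) in susi-2 and 4.52 (4.16 to 4.91) in susi-3, and every IP was above every total library. Its sense counts had the opposite distribution, with 802, 468 and 1065 in the 3 IPs and 24863, 9877 and 14164 in the 3 total libraries. Antisense counts were thus 92.4% of the gene's counts in the susi-2 IP, 86.0% in the susi-3 IP and 40.3% in the control IP, but 0.241%, 1.95% and 0.268% in the total libraries. srpr-2.1 behaved alike, with antisense counts of 3564, 856 and 248 in the susi-2, susi-3 and control IPs and of 23, 116 and 27 in the total libraries.

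At srpr-1.2 and srpr-1.1 the strands were exchanged. srpr-1.2 had sense counts of 9841, 2022 and 759 in the susi-2, susi-3 and control IPs and antisense counts of 1036, 559 and 646 in the susi-2, susi-3 and control total libraries. srpr-1.1 had sense counts of 9739, 1977 and 748 in the IPs, nearly the same as srpr-1.2. The strand that was abundant in total small RNA was thus sense at the srpr-2 genes and antisense at the srpr-1 genes, and at all 4 genes the other strand was the more abundant in both mutant IPs. In the control IP that other strand was also the more abundant at srpr-1.2 (72.2%) and srpr-1.1 (74.3%), but not at srpr-2.2 (40.3%) or srpr-2.1 (28.2%). The ratio of that strand in total small RNA was 5.51 (3.88 to 8.02) for srpr-2.2 and 4.59 (3.00 to 7.26) for srpr-2.1 in susi-3, against 1.59 (1.04 to 2.45) and 0.855 (0.468 to 1.55) in susi-2. For srpr-1.2 and srpr-1.1 it was 4.92 (3.56 to 6.93) and 5.87 (3.96 to 8.98) in susi-3, and 2.05 (1.43 to 2.99) and 3.15 (2.07 to 4.92) in susi-2. The counts of the gene copies are alike, and the tables do not show how many reads the copies share. srpr-2.2 lies across the coding gene klp-6 and srpr-1.2 across ckb-2, neither of which had over 49 counts on either strand in any library.

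**Figure D3:**
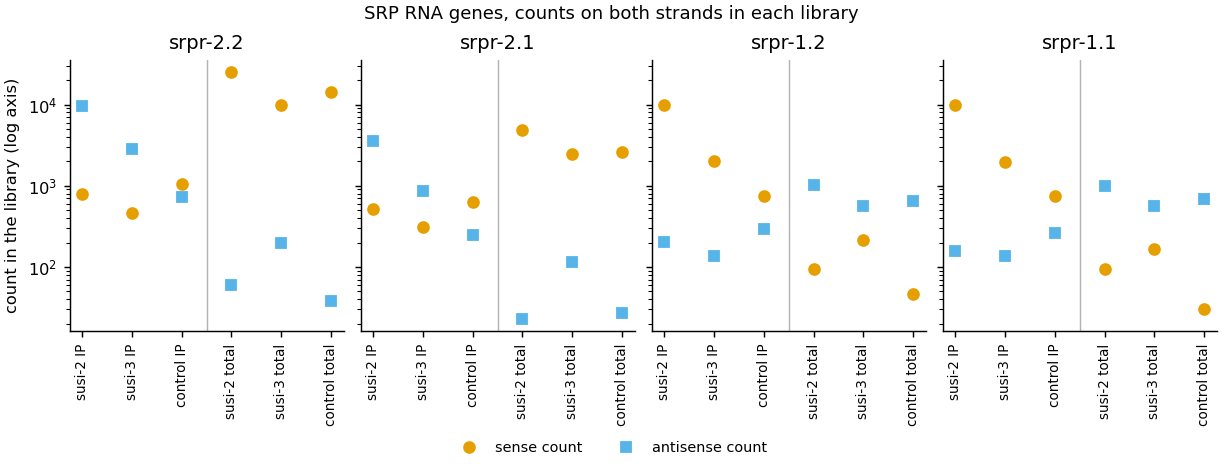
Sense counts (circles) and antisense counts (squares) of the 4 SRP RNA genes in each IP library (left of the line) and each total library (right of it), on a log axis. The strand that is high in the total libraries is low in the susi-2 and susi-3 IPs, where srpr-2.2 reached 9722 antisense counts in susi-2 and 2871 in susi-3 against 719 in the control IP. At srpr-1.2 and srpr-1.1 that strand is also the less abundant in the control IP.

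C18C4.17, a short ncRNA with no overlapping gene, had antisense counts of 76, 343 and 15 in the susi-2, susi-3 and control total libraries, and of 217, 11 and 4 in the susi-2, susi-3 and control IPs. The order of the genotypes differed between the kinds of library: the count was highest in susi-3 in total small RNA and highest in susi-2 in the IP. In total small RNA the ratio was 5.09 (2.90 to 9.53) in susi-2, and in the IP it was 64.0 (24.6 to 237) in susi-2. Its sense counts were 5096, 728 and 3340 in the total libraries, a ratio of 0.233 (0.215 to 0.252) in susi-3. AH9.7 moved otherwise, with antisense counts of 28 and 50 in the susi-2 and susi-3 total libraries against 302 in the control total library.

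Several genes with no annotated role had large sense counts in every library and antisense counts that were high in the susi-2 IP. F08G2.13 had antisense counts of 1287, 107 and 59 in the susi-2, susi-3 and control IPs, a ratio of 25.7 (19.8 to 34.0) in susi-2. Its sense counts were 4284, 7007 and 12054 in the same IPs, so the sense strand was lowest where the antisense strand was highest. Its neighbour in name, F08G2.12, had sense counts of 4146, 5801 and 11312 in the IPs and antisense counts of 47, 15 and 13. CD4.18 and CD4.19, which both lie across the coding gene CD4.11, had antisense counts of 322 and 341 in the susi-2 IP, 20 and 23 in the susi-3 IP, and 17 and 13 in the control IP. The ratios in susi-2 were 22.3 (13.7 to 38.8) for CD4.18 and 30.9 (17.8 to 58.7) for CD4.19. CD4.11 itself had 2 antisense counts in the susi-2 IP. CD4.17, also across CD4.11, had sense counts of 295, 353 and 1363 in the susi-2, susi-3 and control IPs. W01D2.8 had a like order of sense counts, with 3137, 6330 and 11226.

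ZK265.11, which overlaps the homeobox gene ceh-8, had antisense counts of 491, 57 and 35 in the susi-2, susi-3 and control IPs. The ratio was 16.5 (11.7 to 24.0) in susi-2, and the sense counts there were 1355, 932 and 3044. M163.12 and M163.15, which overlap no gene, had 51 and 50 antisense counts in the susi-2 IP, 4 and 2 in the susi-3 IP, and 4 and 2 in the control IP. K10H10.14 and K10H10.11 overlap each other and had antisense counts of 94 and 50 in the susi-2 IP, 15 and 9 in the susi-3 IP, and 15 and 6 in the control IP. The sense counts of K10H10.14 were higher in the IPs, with 9013, 7445 and 9613 in susi-2, susi-3 and control against 3042, 1155 and 1622 in the total libraries. C36C9.10 and F39D8.7 had antisense counts of 825 and 477 in the susi-2 IP, 94 and 56 in the susi-3 IP, and 65 and 68 in the control IP; both were mostly antisense in total small RNA also.

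Sense counts of the 67 genes also differed between the single libraries of total small RNA. Summed, they were 115382, 45986 and 88753 in the susi-2, susi-3 and control total libraries, a ratio of 1.31 (1.29 to 1.32) in susi-2 and 0.553 (0.547 to 0.560) in susi-3. Without the SRP RNA genes the sums were 85531, 33302 and 71944. The ratio was then 1.19 (1.18 to 1.21) in susi-2 and 0.494 (0.488 to 0.501) in susi-3. The median log2 difference of those of the 67 that passed the minimum was 0.34 in susi-2, which TMM scaling turned to -0.14. In susi-3 it was -0.44, at -0.69 under TMM scaling. The largest differences in susi-2 were at C15H11.12, which overlaps the receptor gene gnrr-2, with sense counts of 1771, 283 and 296 in the susi-2, susi-3 and control total libraries, and at Y40H7A.310, with 546, 144 and 89. In susi-3 the lowest sense ratios were 0.233 for C18C4.17, 0.253 for C23H5.10 and 0.267 for F08G2.12, and the highest was 14.7 (7.78 to 31.4) for C43H6.11. F08G2.12 had sense counts of 6517, 2876 and 11525 in the susi-2, susi-3 and control total libraries. C43H6.11, across the glutamate receptor gene glr-7, had 14, 138 and 10 there, but 119, 43 and 190 in the IPs. tts-1, a long non-coding RNA known to associate with ribosomes, had sense counts of 267, 63 and 96 in those libraries, a ratio of 2.79 (2.20 to 3.56) in susi-2.

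Some counts of members came with larger counts of the gene they overlap. T23G5.9 had sense counts of 2, 195 and 386 in the susi-2, susi-3 and control total libraries, the lowest sense ratio in susi-2 among the members that passed the minimum, at 0.00520 (0.000628 to 0.0189). It lies across the coding gene saeg-2, whose antisense counts were 57, 3715 and 7073 in the same libraries. M163.16 lies across the linker histone gene his-24; its sense counts were 267, 485 and 712 in those libraries and the antisense counts of his-24 were 2177, 3467 and 6418. Y41E3.460, T11F9.23 and F40H6.8, which overlap no gene, were likewise ordered: T11F9.23 had sense counts of 159, 265 and 505 and F40H6.8 had 88, 164 and 255 in the susi-2, susi-3 and control total libraries, and Y41E3.460 had antisense counts of 40, 110 and 340. F27C1.18, across the pseudogene ferl-1, had antisense counts of 173, 483 and 714 there. C23H5.10 had sense counts of 14, 75 and 317 there, and the coding gene it overlaps, C23H5.11, had 0, 0 and 2 antisense counts.

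T09A5.18 and K04A8.15 had far more counts in the mutant IPs than in any other library. T09A5.18 had sense counts of 10089, 15926 and 237 in the susi-2, susi-3 and control IPs, against 0, 0 and 1 in the 3 total libraries. It overlaps the lincRNA genes linc-110 and linc-133, and linc-110 had sense counts of 9993, 16112 and 313 in the IPs. K04A8.15, which overlaps the lipase gene lipl-4, had sense counts of 681, 920 and 0 in the susi-2, susi-3 and control IPs and 0 in all 3 total libraries, and lipl-4 had antisense counts of 643, 796 and 0 in the IPs. Against a floor of 3 counts in the control IP library, the share of K04A8.15 in susi-2 IP was at least 268-fold higher and that in susi-3 IP at least 347-fold higher. C05B5.15, which overlaps no gene, had antisense counts of 748, 472 and 312 in the susi-2, susi-3 and control IPs and 0 in every total library. For C05B5.15 a floor of 3 counts per total library gives a share at least 286-fold higher in the IP than in total small RNA in susi-2, 163-fold in susi-3 and 102-fold in the control. Nearly all counts given for T09A5.18, K04A8.15 and C05B5.15 came from the IPs where they are high. Those IPs are part of the sum that chose the members, so these differences are not free of the choice.

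Genes that overlap a microRNA gene were lower in both mutant IPs. Of all genes tested, 5.34% were at least 2-fold lower in antisense counts in the susi-2 IP and 23% in the susi-3 IP. All 17 microRNA-overlapping genes had a lower share of antisense counts in the susi-2 IP than in the control IP, and all 17 in the susi-3 IP. The 17 are counted as lower by any amount, so the 2-fold shares over all genes are no like background for them. Summed without T09B4.14, their antisense counts were 20911, 23413 and 56962 in the susi-2, susi-3 and control IPs, a ratio of 0.433 (0.426 to 0.440) in susi-2 and 0.465 (0.458 to 0.472) in susi-3. In total small RNA the same 16 genes summed to 151868, 206686 and 139114, a ratio of 1.10 in susi-2 and 1.59 in susi-3; with T09B4.14 the ratio was 0.863 (0.860 to 0.867) in susi-2, which turns its direction, and 1.05 in susi-3. F16A11.6, across mir-71, a microRNA of lifespan and stress resistance, had antisense counts of 65228, 100570 and 64521 in the susi-2, susi-3 and control total libraries. ZK930.13, across mir-45, had 24714, 41871 and 23448 there, again highest in susi-3. K01F9.7, across mir-90, had 27927, 20910 and 19088, highest in susi-2, and K01F9.6, across mir-80, had 16805, 22207 and 17812. In the susi-2, susi-3 and control IPs ZK930.13 had 5245, 4692 and 8770 antisense counts, K01F9.7 had 1787, 1872 and 5195, and K01F9.6 had 1838, 2374 and 7664. F59G1.10, across lin-4, the founding microRNA of developmental timing, had 1914, 2914 and 1487 in the total libraries, a ratio of 2.09 (1.97 to 2.23) in susi-3.

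F49E12.14, across mir-85, departed from the other microRNA-overlapping genes. Its antisense counts were 32, 1084 and 562 in the susi-2, susi-3 and control total libraries, and 5, 52 and 284 in the IPs. The ratio of F49E12.14 in susi-2 total small RNA was 0.0572 (0.0387 to 0.0816), and the sense counts of mir-85 itself were 56, 1140 and 591. C12C8.6, across mir-79, had antisense counts of 5, 4 and 10 in the susi-2, susi-3 and control IPs and 733, 951 and 730 in total small RNA, the lowest value of IP over total small RNA among the members tested. Its sense counts, opposite to mir-79, were 114, 16 and 22 in the susi-2, susi-3 and control IPs. Y37A1B.335, across mir-52, had more antisense counts in the IP, with 707, 1379 and 3796 in the susi-2, susi-3 and control IPs against 635, 1086 and 526 in the total libraries.

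Genes that overlap a tRNA gene had lower antisense counts in the susi-3 IP with 1 exception. Of the 184, 183 had a lower share than in the control IP, with sums of 13183 and 32964 counts. In the susi-2 IP 145 of the 184 were lower, with a sum of 19303 against 32964, a ratio of 0.690 (0.678 to 0.703). Of all genes tested, 23% were at least 2-fold lower in the susi-3 IP and 5.34% in the susi-2 IP. The 183 and 145 are lower by any amount, so these 2-fold shares are no like background for them. In the IPs the match to the tRNA genes was weaker. Median antisense counts of the 184 genes were 45.5, 28 and 88.5 in the susi-2, susi-3 and control IPs. Median sense counts of the tRNA genes were 19, 14 and 42 there, so these do not account for many of the IP counts. Antisense counts of the 184 genes split in total small RNA, with 90 higher and 94 lower in susi-2 and 98 higher and 86 lower in susi-3. Their median log2 difference in susi-2 total small RNA was -0.15 relative to library totals and 0.50 under TMM scaling, so it has no firm direction. The largest set of near-equal counts, on glutamate tRNA genes, was lower in both mutants, as given above. Y7A9D.66, F12D9.5 and F14H8.10 were also lower in both mutants, with 283, 252 and 276 antisense counts in the susi-2 total library, 268, 217 and 256 in the susi-3 total library, and 1080, 960 and 1023 in the control total library. A further group was low in susi-3 alone: K12H4.10, F46G11.11 and F46G11.14 had 513, 520 and 437 antisense counts in the susi-2 total library, 112, 114 and 108 in the susi-3 total library, and 635, 631 and 572 in the control total library. C28G1.8, Y55F3BR.16 and C44B7.15 had the same order of libraries, with 209, 225 and 240 in susi-3 against 1148, 1155 and 1118 in the control.

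Other tRNA-overlapping genes were higher in both mutants in total small RNA. H08J11.7 had antisense counts of 347 and 384 in the susi-2 and susi-3 total libraries against 113 in the control total library, C06E4.20 had 364 and 406 against 122, and K10C8.5 had 194 and 113 against 53. Y105C5A.1277, Y37A1B.334 and Y38E10A.31 had 174, 173 and 179 in the susi-2 total library and 146, 144 and 139 in the susi-3 total library, against 53, 54 and 57 in the control total library. How many reads these genes share was not tested. C28A5.10 had the lowest ratio of the tRNA-overlapping genes compared in both mutant IPs, with 15 and 12 antisense counts in susi-2 and susi-3 against 382 in the control IP, and its tRNA gene had sense counts of 10 and 13 against 317. C16B8.8 had 14 and 23 antisense counts in the susi-2 and susi-3 IPs against 189 in the control IP. C06G1.15, W06G6.19 and Y54G2A.65 had between 55 and 99 in the mutant IPs and between 274 and 278 in the control IP.

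Sense counts of the tRNA-overlapping genes, called opposite to the tRNA, were higher in the susi-2 IP. That name holds less well here, as only 15 of 37 pairs with at least 50 sense counts matched within 1.5-fold. Summed sense counts of the 184 genes were 4159, 1211 and 979 in the susi-2, susi-3 and control IPs, a ratio of 5.01 (4.67 to 5.38) in susi-2 and 1.40 (1.29 to 1.52) in susi-3. Of the 167 genes with any sense count in the susi-2 and control IPs, 159 had a higher share in the susi-2 IP, and of the 149 with any in the susi-3 and control IPs, 93 had a higher share in the susi-3 IP. Of all genes tested, 4.54% were at least 2-fold higher in sense counts in the susi-2 IP and 3.22% in the susi-3 IP. The 159 and 93 are higher by any amount and without a minimum count, so these 2-fold shares are no like background for them. The median log2 difference of the tRNA-overlapping genes that passed the minimum was 1.99 in the susi-2 IP and -0.01 in the susi-3 IP (0.30 under TMM scaling), so sum and median differ in sign in susi-3. The sums were small in total small RNA, with 259, 340 and 280 counts. R11B5.3 contributed most, with sense counts of 761, 277 and 83 in the susi-2, susi-3 and control IPs. Its tRNA gene had antisense counts of 722, 277 and 88. Most counts of R11B5.3 came from the IPs, which are part of the sum that chose the members, so its difference is not free of that choice. Without R11B5.3 the ratio in the susi-2 IP was 4.47 (4.15 to 4.82).

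snRNA genes, whose RNAs form the spliceosome, were crossed by 18 members. The strand opposite to the snRNA was higher in all 18 in both mutants in total small RNA. In the susi-2 comparison 2 of the 18 reached 50 sense counts, and in the susi-3 comparison all 18 did. How many reads the 18 share was not tested, so they may not be separate events. Of all genes tested, 15.7% in susi-2 and 10.3% in susi-3 were at least 2-fold higher in sense counts. The 18 are counted as higher by any amount, so these 2-fold shares are no like background for them. Summed sense counts of the 18 were 517, 1648 and 234 in the susi-2, susi-3 and control total libraries. The ratio was 2.22 (1.90 to 2.60) in susi-2 and 7.52 (6.56 to 8.66) in susi-3. In the IP the order of the mutants was the other way, with 890, 104 and 86 counts in the susi-2, susi-3 and control IPs. The ratio was 12.2 (9.77 to 15.4) in susi-2 and 1.37 (1.02 to 1.84) in susi-3. Counts per gene were low there: 5 of the 18 reached 50 sense counts in the susi-2 IP comparison and 0 in the susi-3 one. T08G5.18 had sense counts of 54, 181 and 22 in the susi-2, susi-3 and control total libraries and 227, 25 and 17 in the IPs. Y75B8A.49, across sls-2.8, which encodes a spliced leader RNA used in trans-splicing, had 133, 402 and 91 in total small RNA and 28, 2 and 2 in the IPs. The antisense strand, that of the snRNA, summed to 3166 counts in the susi-3 total library against 4547 in the control total library, and to 941 in the susi-3 IP against 2466 in the control IP; the first median difference, -0.43, turned to 0.13 under TMM scaling.

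snoRNAs guide chemical modification of rRNA, and 13 members crossed their genes. K07C10.6 held most of the sense counts, with 12980, 2840 and 9023 in the susi-2, susi-3 and control total libraries, and the snoRNA gene it crosses, K07C10.2, had nearly equal antisense counts of 13552, 2883 and 8511. Its antisense counts were 152, 195 and 35 in those libraries and 965, 181 and 324 in the susi-2, susi-3 and control IPs. Without K07C10.6, the other 12 genes summed to 3468, 1073 and 1261 sense counts in the IPs, a ratio of 3.24 (3.04 to 3.46) in susi-2 and 0.963 (0.887 to 1.05) in susi-3. In total small RNA they summed to 649, 930 and 386, a ratio of 1.69 (1.49 to 1.92) in susi-2 and 2.57 (2.28 to 2.91) in susi-3. With K07C10.6 included, the ratio of all 13 was 1.68 in the susi-2 IP and 0.428 in susi-3 total small RNA. F55A11.13, across the snoRNA gene F55A11.10, had sense counts of 623, 83 and 35 in the susi-2, susi-3 and control IPs. T19C4.17, across the snoRNA gene T19C4.12, had sense counts of 53, 184 and 43 in the susi-2, susi-3 and control total libraries. On the snoRNA strand, Y39G10AR.26 had antisense counts of 5147, 1700 and 8906 in those libraries. F55G1.20, across the Y RNA gene, had sense counts of 986, 395 and 578 in the susi-2, susi-3 and control IPs, a ratio of 2.01 (1.81 to 2.23) in susi-2.

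**Figure D4:**
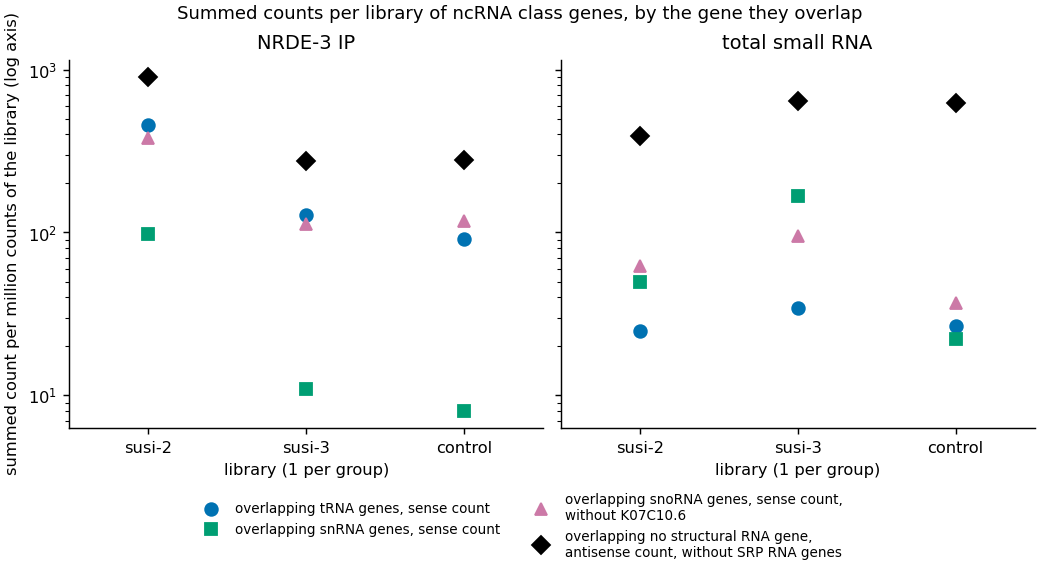
Summed CPM (log axis) in each IP library (left) and total library (right): sense counts of genes that overlap tRNA (circles), snRNA (squares) and snoRNA genes (triangles, without K07C10.6), and antisense counts of genes that overlap no structural RNA gene (diamonds, without the SRP RNA genes). All 4 sums are highest in susi-2 in the IP; in total small RNA the snRNA sum is highest in susi-3, with 1648 counts against 234 in the control.

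NRDE-3 IP was set against total small RNA over the 3 genotypes, the 1 comparison with more than 1 library on each side. edgeR's quasi-likelihood test, with genotype as a term and Benjamini-Hochberg adjustment over all 8782 genes tested, has 2 residual degrees of freedom here, and its error is how far the IP effect differs between genotypes. Of the 280 members tested on antisense counts, 27 were higher in the IP (16.2% of all genes) and 162 lower (28.5% of all genes). The median log2 difference was -2.25 over the members and -1.03 over all genes tested. Of the genes that overlap a tRNA gene 9 were higher and 125 lower of 184, and of those that overlap a microRNA gene 1 was higher and 15 lower of 17. The 27 genes tested that overlap protein-coding genes only had 10 higher and 4 lower, with a median of 0.79. Without the control pair of libraries 14 members were higher and 127 lower, and without the susi-3 pair 16 were higher and 86 lower.

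srpr-2.2 was higher in the IP by 5.11 on the log2 scale and srpr-2.1 by 4.28 (edgeR, adjusted p = 2.51e-09 and 5.7e-06; higher in the IP in 3 of 3 genotypes each). At the other end, C12C8.6 had a log2 difference of -6.95, M163.18 of -6.22 and M01E5.8 of -6.06 (edgeR, adjusted p = 1.18e-10, 7.54e-09 and 1.2e-08; lower in the IP in 3 of 3 genotypes each). M163.18, across a tRNA gene, had antisense counts of 2, 5 and 23 in the susi-2, susi-3 and control IPs and 455, 463 and 787 in the total libraries. R160.8, with no overlapping gene, had antisense counts of 205, 89 and 239 in the susi-2, susi-3 and control IPs and 0, 3 and 0 in the total libraries (edgeR, adjusted p = 2.04e-08). F19F10.13, across the lectin gene clec-212, had 110, 184 and 366 in the IPs and 2, 9 and 4 in the total libraries (edgeR, adjusted p = 9.65e-07). These 2 genes were highest in the control IP, unlike the SRP RNA genes. Almost all of their antisense counts came from the IPs, which are part of the sum that chose the members. Their values of IP over total are thus not free of that choice. Members within anc-1, a giant nuclear anchorage protein gene, were 5 in number; each was higher in the IP, with antisense counts between 113 and 167 in the 3 IPs and between 18 and 54 in the total libraries. For ZK973.16 edgeR gave an adjusted p of 0.0414, which lay between 6.65e-06 and 0.389 under the alternatives. anc-1 itself had between 13406 and 23944 sense counts in every library. Most antisense counts of the 5 members within it also came from the IPs, so the same limit applies to them.

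Some genes across tryptophan tRNA genes also had higher antisense counts in the IP than in total small RNA, unlike most tRNA-overlapping members. They are named here after their values were seen, and most of their counts came from the IPs, which are part of the sum that chose the members. C03B1.16, across sup-7, which is known for its amber suppressor alleles, had antisense counts of 1077, 719 and 1611 in the susi-2, susi-3 and control IPs and 91, 73 and 78 in the total libraries (edgeR, adjusted p = 1.55e-05). sup-7 itself had sense counts of 8, 7 and 25 in the IPs, far below the antisense counts of C03B1.16. The 6 members across sup-28, sup-7, sup-5, sup-33, sup-29 and rtw-6 had medians of 480, 334.5 and 616.5 in the susi-2, susi-3 and control IPs, against 50.5, 46 and 21.5 in the total libraries. All 6 were highest in the control IP and lowest in the susi-3 IP.

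**Figure D5:**
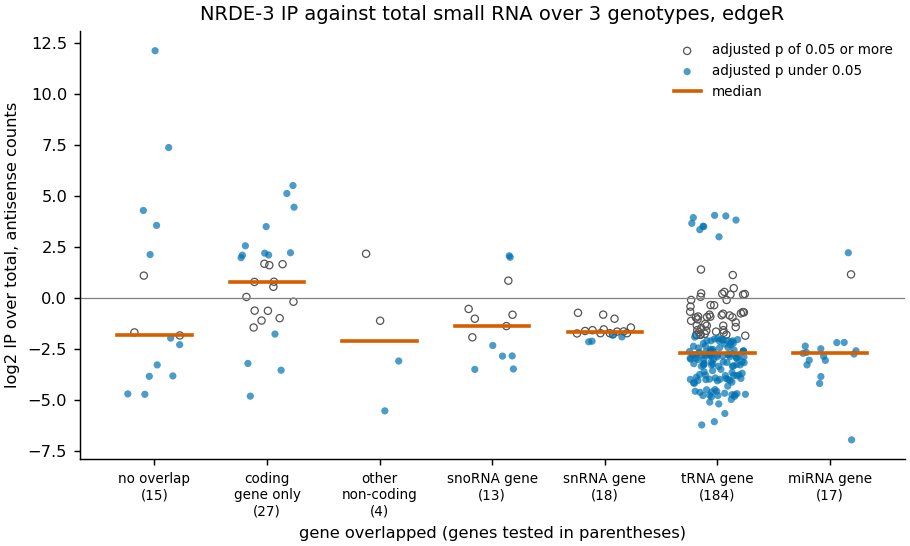
Log2 difference of antisense counts, IP over total, from edgeR for each member tested, by the gene it overlaps; filled points have an adjusted p under 0.05, and bars are medians. Of the groups drawn, the median is above 0 only for genes that overlap protein-coding genes only (0.79), and these signs were the same under TMM scaling.

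Pair by pair, the IP share of antisense counts was at least 2-fold above that in total small RNA for 43 of 275 members in susi-2 (31.4% of all genes) and at least 2-fold below for 200 (31.7%). In susi-3 24 of 265 were higher (15% of all genes) and 219 lower (65.8%), and in the control 36 of 268 were higher (11.9%) and 154 lower (70.8%). The members' median in the control, -1.25, turned to 0.90 under TMM scaling, while that of all genes went to -0.07; the medians of -2.28 in susi-2 and -2.56 in susi-3 kept their sign, at -2.13 and -0.73. On the sense strand 45 of 87 members were at least 2-fold higher in the IP and 29 lower in susi-2 (19.9% and 28.1% of all genes), 17 of 78 higher and 45 lower in susi-3 (29.1% and 24.5%), and 19 of 59 higher and 25 lower in the control (43.7% and 17.2%).

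The rest of the ncRNA class and other classes gave the following values for antisense counts. The other 7419 ncRNA class genes summed to 12165, 7406 and 11007 antisense counts in the susi-2, susi-3 and control IPs, a ratio of 1.30 in susi-2, and 95 of them passed the minimum there. The lincRNA class summed to 13902, 16493 and 2819, a ratio of 5.81 in the susi-2 IP and 6.62 in the susi-3 IP, while the median log2 difference of those that passed the minimum was 0.71 and -1.10. Protein-coding genes had a ratio of 1.73 in the susi-2 IP and 0.968 in the susi-3 IP, and transposons 1.03 and 0.538. A list of 31 genes held small RNA pathway genes and also the mutated genes rrp-8 and riok-1. Of these, 26 passed the minimum in the susi-2 IP, with a median of 1.24. There 19 were at least 2-fold higher (45.8% of all genes tested) and 0 lower (5.34%). In the susi-3 IP 15 passed, with 1 higher (11.8% of all genes) and 5 lower (23%) and a median of -0.71. The difference between these classes and the members was not tested.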

How the data were processed

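Sense and antisense read counts per feature were deposited by the authors for 6 libraries, 1 per genotype and kind of RNA. Reads were aligned with Bowtie2, per the submitters' processing notes. The genome build, annotation release, alignment settings, strand rule and treatment of reads that fit several places were not given in the sources used here; copies and overlapping genes may share reads. The tables hold 56377 features of 45510 genes; 5 blank cells and 3 features without a gene name were left out. Features were summed per gene, and the class is the one in the tables. Members, lists and comparisons were chosen with earlier results of these data known. Genes were named by a rule: the 10 largest, the extremes of each comparison, the markers and the edge of the set. C04C11.8, C36C9.10, D1073.3, F39D8.7, F55G1.20, F59G1.10, K10H10.11, K10H10.14, M163.15, M163.16, R166.6, tts-1 and the sums without single genes were added after their values were seen.

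Counts were divided by each library's total over both strands, from 9122066 to 10755494, as counts per 1000000 (CPM), and compared as log2(CPM + 1) for genes with at least 50 counts on that strand over the 2 libraries. At least 2-fold means a log2 difference of at least 1. Ratios are of shares of the library total, with exact conditional 95% intervals; a floor is 3 counts in a library, and both cover counting error only. IP and total libraries were compared over the 3 genotypes with edgeR 4.0.16 in R 4.3.3 (quasi-likelihood, genotype and fraction as terms, library totals without TMM, at least 10 counts in at least 3 libraries, Benjamini-Hochberg threshold 0.05). DESeq2 1.42.0 was an alternative. Other alternatives were TMM and size factor scaling, totals without rRNA, other minimum counts and pseudocounts, both strands summed, no genotype term and leaving out each genotype. The calculations were tested on simulated data. Python 3.11.15, NumPy 2.4.6, pandas 2.3.3 and SciPy 1.17.1 were used. Overlaps came from the RefSeq gene table of WBcel235, and none of its coordinates are given. No sequences are shown.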

Additional observations from a re-analysis of the deposited data

Results flagged for a closer look

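Some genes moved one way against the control in the IP and the other way in total small RNA. With 1 library per group, these differences between the kinds of library were not tested. On the log2(CPM + 1) scale the antisense difference of susi-3 over control in the IP and in total small RNA was -1.28 and 1.77 for H08J11.7, -1.94 and 1.44 for H08J11.6, -1.14 and 1.74 for C06E4.20, -1.54 and 1.35 for Y37A1B.334, and -1.62 and 1.24 for Y38E10A.31. All 5 overlap a tRNA gene. It was -2.08 and 1.03 for F49E12.14 and -1.28 and 1.13 for Y37A1B.335, which overlap mir-85 and mir-52. In susi-2 it was -1.002 in the IP and 1.31 in total small RNA for H08J11.6. The sense difference of C43H6.11 in susi-3 was -1.76 in the IP and 2.94 in total small RNA.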

How the results depend on the processing

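No paired analysis was possible because, between genotypes, each group has 1 library and the labels give no replicate numbers; IP and total libraries were paired by genotype in the edgeR fit, and without that term 28 members were higher and 168 lower. Of 170 alternatives to 24 counts of members, 123 stayed within 1.5 times; in the others the cause was not tested. With TMM and size factor scaling, antisense counts at least 2-fold higher became 110 and 111 in susi-2 total small RNA (10 and 10 lower) and 99 and 99 in susi-3 total small RNA. In the susi-2 IP 177 and 179 were lower, and in the susi-3 IP 6 and 6 were higher and 35 and 33 lower. IP over total gave 45 and 48 higher and 90 and 77 lower in susi-3, and 128 and 134 higher and 62 and 58 lower in the control. For sense counts the same scalings gave 4 and 4 higher and 11 and 11 lower in susi-2 total small RNA, 20 and 20 lower in susi-3 total small RNA, 3 and 3 lower in the susi-2 IP and 6 and 6 lower in the susi-3 IP. With a minimum of 200 counts, which tests fewer genes, 17 antisense counts were higher in the susi-2 IP and 75 lower in the susi-3 IP, 27 and 15 were higher in the IP in susi-2 and susi-3, and sense counts gave 4 higher in susi-3 total small RNA and 19 higher and 4 lower in the susi-2 IP. Without a minimum, 77 sense counts were higher in the susi-2 IP. In the susi-3 IP 5 antisense counts were higher with totals without rRNA and 6 with both strands summed. In the fit of IP against total, TMM scaling gave 103 lower, DESeq2 43 higher, and sense counts 41 higher and 35 lower; leaving out a genotype gave between 14 and 27 higher and between 86 and 186 lower. Of 416 alternatives to 80 log2 values of single genes, 399 kept their direction and side of 2-fold, and 4 reversed, all with both strands summed: C18C4.17 at -1.54, K07C10.6 at -1.48 and srpr-2.2 at -0.40 in susi-3 total small RNA, and F08G2.13 at -0.88 in the susi-2 IP. The abundant sense strand enters those sums. Counts under about 50 in a library carry wide counting intervals, and no alternative supplies the missing replicates.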
